A study of Homo sapiens with 4 samples.

Results

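The miR-148 and miR-152 family comprised hsa-miR-148a-3p, hsa-miR-148b-3p and hsa-miR-152-3p, 3 mature miRNAs that share a seed. They were 3 of the 539 miRNAs listed for both replicates, and of the 1619 listed for either. The family was picked because hsa-miR-148a-3p was higher in extracellular vesicles (EVs) of glucose-deprived cells in these same libraries, and its relatives were then added by name. The values of hsa-miR-148a-3p between the media are therefore a description without a test. The question was whether hsa-miR-148b-3p and hsa-miR-152-3p moved with it.

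Small RNA was sequenced from EVs of MDA-MB-231 cells, a human line of triple-negative breast cancer and epithelial type with the genotype given as WT. The group 231 EV came from near-confluent cells given EV-free DMEM, and the group 231 -G EV from cells given glucose-free medium, each for 12 h. Both had grown in DMEM with fetal bovine serum before, and EVs of both were pelleted at 110000 × g for 70 min. Each group held 2 libraries from this single line, and nothing in the labels says that they came from separate cultures, so edgeR p-values measure only the spread between these libraries. P-values from Fisher's exact test set the reads of 1 library against another and cover counting error only. The replicate number also marked the preparation: replicate 1 used RNA treated first to strip modifications and kept inserts of 14 to 40 nt, and for replicate 2 the labels name a TruSeq RNA kit for RNA preparation and an NEBNext small RNA kit for the libraries. A pair below means the 2 libraries of 1 replicate number, and other differences between the pairs cannot be told apart from the preparation.

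The libraries held 18397 (231 EV) and 15597 (231 -G EV) miRNA reads in replicate 1, and 224966 and 170894 in replicate 2. Levels are given as counts per 1000000 miRNA reads (CPM). A single read was worth 54.4 and 64.1 CPM in replicate 1 but 4.45 and 5.85 CPM in replicate 2. The pairs stood apart from each other. The miRNAs hsa-miR-21-5p, hsa-miR-221-3p and hsa-miR-222-3p, which are abundant in basal breast cancer lines, took 2.03% and 2.82% of the reads in replicate 1 against 32.3% and 26.2% in replicate 2. The oncogenic hsa-miR-182-5p had 9379 reads, 51.0% of the library, in 231 EV of replicate 1, but 426 reads in its -G EV partner, and 572 (231 EV) and 427 (231 -G EV) reads in replicate 2.

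A miRNA guides Argonaute to messenger RNAs chiefly by pairing of its seed, bases 2 to 8, with sites in 3′ UTRs. Members of a seed family can therefore recognise the same sites even when they come from separate genes. The family is best known for targeting the DNA methyltransferase DNMT1, and hsa-miR-148a-3p also for targeting ABCA1, a transcript of lipid handling. In breast tumours its members are mostly described as tumour suppressive, and miR-148a and miR-152 as silenced by promoter methylation.

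The mature sequences are shown because they separate what the members share from what a library can tell apart. Capitals mark the seed, and the sequences are from RefSeq on GRCh38.p14.
hsa-miR-148a-3p: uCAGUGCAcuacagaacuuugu
hsa-miR-148b-3p: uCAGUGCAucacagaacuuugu
hsa-miR-152-3p: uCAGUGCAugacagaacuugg

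Counted from 1 at the 5′ end, hsa-miR-148a-3p and hsa-miR-148b-3p were both 22 nt long and differed at adjacent bases, C9U and U10C with the hsa-miR-148a-3p base first. They shared the 8 bases before and the 12 bases after. From hsa-miR-148a-3p, hsa-miR-152-3p differed by C9U, U10G and U20G and was 21 nt long. From hsa-miR-148b-3p it differed by C10G and U20G. Of 2370 mature human miRNAs in the sequence table, 3 (0.127%) held the seed CAGUGCA, and these were the family. Reads of hsa-miR-148a-3p and hsa-miR-148b-3p were therefore told apart by bases 9 and 10. The letters GGAG, a motif linked to EV sorting, were in 372 (15.7%) of these miRNAs, and CAUUG, letters of miR-33a-5p that the study examined for protein binding, in 41 (1.73%). Neither was in any of the 3 members (0 of 3 each).

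The members came from separate loci. The hairpin of miR-148a lies at chr7:25949919-25949986 on the minus strand (GRCh38) and overlapped no annotated gene in GENCODE v29, with the nearest protein-coding gene, NFE2L3, 202254 bp away on the other strand. The hairpin of miR-148b lies at chr12:54337216-54337314 on the plus strand in intron 1 of COPZ1, which encodes a coatomer subunit. It also lies within AC078778.2, annotated as sense overlapping. The hairpin of miR-152 lies at chr17:48037161-48037247 on the minus strand in intron 1 of COPZ2, which encodes a second form of that subunit. Both host genes run on the strand of their miRNA, and no annotated exon overlapped either hairpin.

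The dominant member was hsa-miR-148a-3p in every library. It had 125 reads in 231 EV and 1140 in 231 -G EV of replicate 1, and 797 and 944 reads in replicate 2. These were levels of 6795 CPM (95% Wilson interval 5706 to 8089) and 73091 CPM (69110 to 77282), and then of 3543 CPM (3306 to 3797) and 5524 CPM (5183 to 5887). The -G EV library was higher in both pairs, but the groups overlapped, since 231 -G EV of replicate 2 lay below 231 EV of replicate 1. The miRNA stood 9th by level in 231 EV and 2nd in 231 -G EV of replicate 1, after the erythroid hsa-miR-451a, but 34th and 26th in replicate 2. All intervals here cover counting error only, because amplified reads were not collapsed to molecules.

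The near-identical hsa-miR-148b-3p had 10 (231 EV) and 8 (231 -G EV) reads in replicate 1, and 364 and 419 reads in replicate 2. Its levels were 544 CPM (295 to 1000) and 513 CPM (260 to 1012), and then 1618 CPM (1460 to 1793) and 2452 CPM (2228 to 2698). In replicate 1 both libraries were alike within counting error, and in replicate 2 the -G EV library was the higher, so the groups overlapped.

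The third member, hsa-miR-152-3p, had 5 and 7 reads in replicate 1 and 21 and 21 reads in replicate 2. These were 272 CPM (116 to 636) and 449 CPM (217 to 926), and then 93.3 CPM (61.1 to 143) and 123 CPM (80.4 to 188). It was the lowest of the 3 in every library, but in replicate 1 its intervals overlapped those of hsa-miR-148b-3p.

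**Figure D1:**
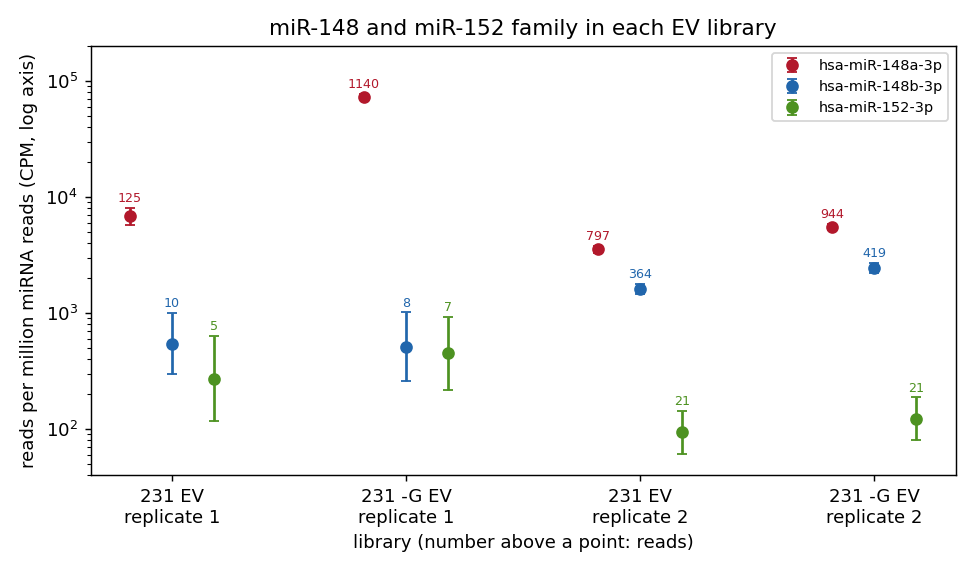
Level in CPM (log axis) of the 3 family members in the 4 libraries, with 1 point for each library and bars for the 95% Wilson interval of its reads. The hsa-miR-148a-3p point of 231 -G EV of replicate 1, at 73091 CPM, lies far above its other 3 points (3543 to 6795 CPM), and no point of the other 2 members exceeds 2452 CPM.

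Ratios of 231 -G EV over 231 EV were then taken within each pair. For hsa-miR-148a-3p the ratio was 10.8 (95% exact interval 8.94 to 13.0) in pair 1 and 1.56 (1.42 to 1.72) in pair 2. For hsa-miR-148b-3p it was 0.944 (0.324 to 2.66) in pair 1, with an adjusted p of 1 by Fisher's exact test on the reads. In pair 2 its ratio was 1.52 (1.31 to 1.75), with an adjusted p of 7.43e-08 by the same exact test, so that it rose between those libraries. For hsa-miR-152-3p the ratios were 1.65 (0.451 to 6.60) and 1.32 (0.684 to 2.53), with exact adjusted p of 0.869 and 0.731. In pair 1 the few reads leave upper bounds of 2.66 for hsa-miR-148b-3p and 6.60 for hsa-miR-152-3p. In pair 2 the intervals of all 3 members overlapped. Fisher's test compares 1 library with another, not the media. It called 53 of 670 miRNAs (7.91%) higher in -G EV in pair 1 and 61 of 618 (9.87%) in pair 2, so 0 of the 2 tested members in pair 1 and 1 of 2 in pair 2 stand against those shares.

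Set against the library totals, 1 of the 3 members, hsa-miR-148a-3p, was more than 1.5-fold higher in -G EV in both pairs, on CPM plus 1. This was the pattern the family was picked on, so nothing is read from that count. Over all 539 miRNAs, 39 (7.24%) passed it and 36 (6.68%) were as much lower in both. In pair 1 alone hsa-miR-152-3p was also past 1.5-fold, as were 182 of 539 (33.8%), and in pair 2 alone hsa-miR-148b-3p was, as were 117 of 539 (21.7%). The median log2 fold of the 3 members was 0.72 in pair 1 and 0.60 in pair 2, against medians of 0 and 0 over all 539 miRNAs, many of which had few or no reads. These medians hold the contrast the family was picked on, so nothing is read from them. Better covered were the 54 miRNAs with at least 10 reads in every library, whose median fold was 1.84 in pair 1 and 0.941 in pair 2. Among them the fold of hsa-miR-148a-3p stood 1st in pair 1 and 11th in pair 2, and 6 of the 54 were past 1.5-fold in both pairs. That rank is a description, since hsa-miR-148a-3p was picked on this contrast. The read minimum also left out steeper rises in pair 1, such as hsa-miR-1-3p (3 and 122 reads, 47.7-fold) and hsa-miR-206 (0 and 98 reads). The members hsa-miR-148b-3p and hsa-miR-152-3p missed that read minimum in replicate 1.

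With the replicate number as a block, edgeR gave a log2 fold change of 2.03 for hsa-miR-148a-3p, as a description without a test. Its quasi-likelihood test gave 0.31 (SE 0.998, adjusted p = 0.999) for hsa-miR-148b-3p and 0.53 (SE 1.19, adjusted p = 0.999) for hsa-miR-152-3p. The estimate for hsa-miR-148a-3p rests on unequal pairs, 3.43 from pair 1 alone and 0.64 from pair 2 alone. Over all 384 miRNAs with reads in at least 2 libraries, 0 (0%) passed an adjusted p of 0.05 with a log2 fold change beyond 1, and 5 had an unadjusted p under 0.05. DESeq2 and limma also called 0, with 6 and 13 miRNAs under an unadjusted p of 0.05. With 2 libraries a group, the media were therefore not shown to differ in hsa-miR-148b-3p or hsa-miR-152-3p.

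The scaling mattered because a few miRNAs filled the libraries of replicate 1. The median log2 fold change of all miRNAs tested was 0.20 by totals and -0.14 by trimmed mean (TMM) scaling. Under TMM the pair 1 ratio of hsa-miR-148a-3p was 5.99, that of hsa-miR-148b-3p 0.526 and that of hsa-miR-152-3p 0.920 (0.251 to 3.67). With hsa-miR-182-5p removed from the totals they were 5.42 (4.50 to 6.57), 0.476 (0.163 to 1.34) and 0.832 (0.227 to 3.33). A scaling multiplies all ratios of a pair by 1 factor, and the intervals of hsa-miR-152-3p included 1 under each. In pair 2 TMM gave 1.47 (1.33 to 1.62), 1.43 and 1.24, and leaving out hsa-miR-182-5p gave 1.56, 1.52 and 1.32. Relative to hsa-miR-16-5p, pair 1 gave 16.0 (10.2 to 25.2), 1.40 and 2.45. That reference, a widely used one that is itself abundant in blood cells, had 70 (231 EV) and 40 (231 -G EV) reads in replicate 1 and 15834 and 18955 in replicate 2, so its own ratio was 0.674 (0.445 to 1.01) in pair 1 and 1.58 (1.54 to 1.61) in pair 2. In pair 2, relative to it, the members were at 0.989 (0.897 to 1.09), 0.962 (0.832 to 1.11) and 0.835. In pair 2 the ratios of hsa-miR-148a-3p and hsa-miR-148b-3p were thus close to that of hsa-miR-16-5p.

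**Figure D2:**
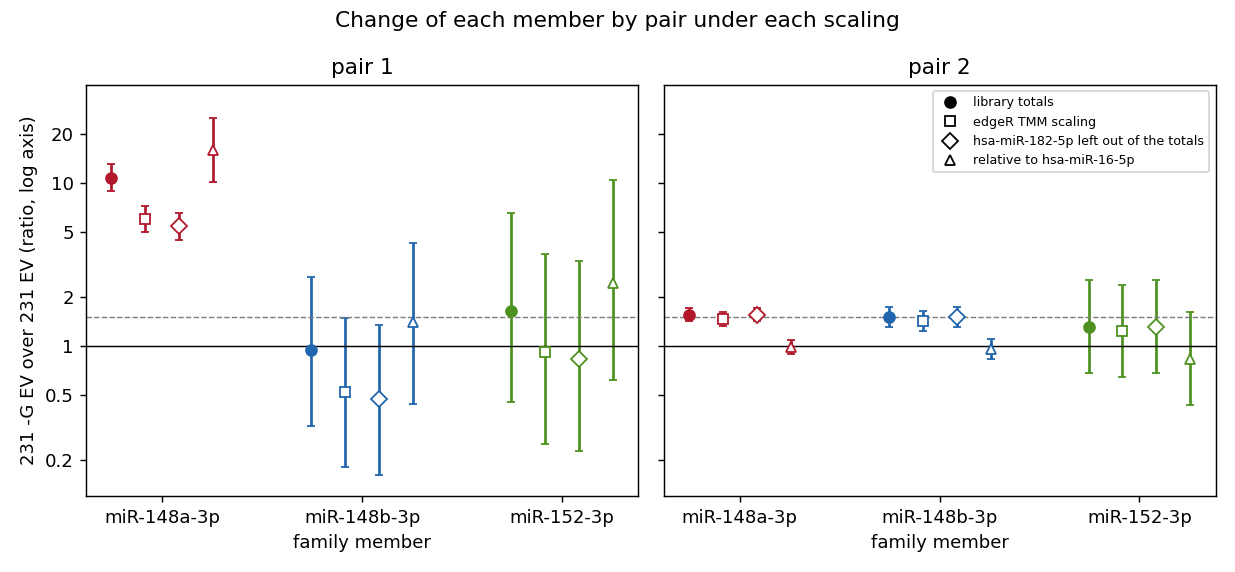
Ratio of 231 -G EV over 231 EV (log axis) of each family member in pair 1 (left) and pair 2 (right) under 4 scalings, with bars for the 95% exact interval from the reads; the solid line marks a ratio of 1 and the dashed line 1.5. In pair 1 hsa-miR-148a-3p lies between 5.42 and 16.0 under every scaling shown, and in pair 2 the 3 members lie from 1.32 to 1.56 by totals and from 0.835 to 0.989 relative to hsa-miR-16-5p.

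Ratios within a library need no scaling. For each read of hsa-miR-148b-3p there were 12.5 reads of hsa-miR-148a-3p in 231 EV and 142.5 in 231 -G EV of replicate 1, but 2.19 and 2.25 in replicate 2. The ratio of these ratios, -G EV over EV, was 11.4 (95% exact interval 3.95 to 33.8) in pair 1 and 1.03 (0.866 to 1.22) in pair 2. Per read of hsa-miR-152-3p there were 25 and 163 reads of hsa-miR-148a-3p in replicate 1 and 38.0 and 45.0 in replicate 2. Here the ratio of ratios was 6.51 (1.60 to 24.2) in pair 1 and 1.18 (0.610 to 2.30) in pair 2. Between hsa-miR-148b-3p and hsa-miR-152-3p it was 0.571 (0.101 to 3.13) and 1.15 (0.588 to 2.25), so no shift between these members was detectable at this depth. The ratios with hsa-miR-148a-3p hold the contrast the family was picked on and are descriptions.

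As a share of its miRNA reads, the family took 0.761% (140 reads, Wilson interval 0.645% to 0.897%) of 231 EV and 7.41% (1155 reads, 7.0% to 7.83%) of 231 -G EV in replicate 1. In replicate 2 it took 0.525% (1182 reads, 0.496% to 0.556%) and 0.810% (1384 reads, 0.768% to 0.853%). The ratio of the summed family was 9.73 (8.16 to 11.7) in pair 1 and 1.54 (1.43 to 1.67) in pair 2. With hsa-miR-148a-3p taken out, it was 1.18 (0.537 to 2.59) and 1.5 (1.31 to 1.73), so without that member the interval of pair 1 included 1 and that of pair 2 did not. Of the family's reads, hsa-miR-148a-3p made up 89.3% (83.1% to 93.4%) and 98.7% (97.9% to 99.2%) in replicate 1, and 67.4% (64.7% to 70.0%) and 68.2% (65.7% to 70.6%) in replicate 2. The share of hsa-miR-148b-3p was 7.14% and 0.693% in replicate 1 and 30.8% and 30.3% in replicate 2, and that of hsa-miR-152-3p stayed between 0.606% and 3.57%.

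**Figure D3:**
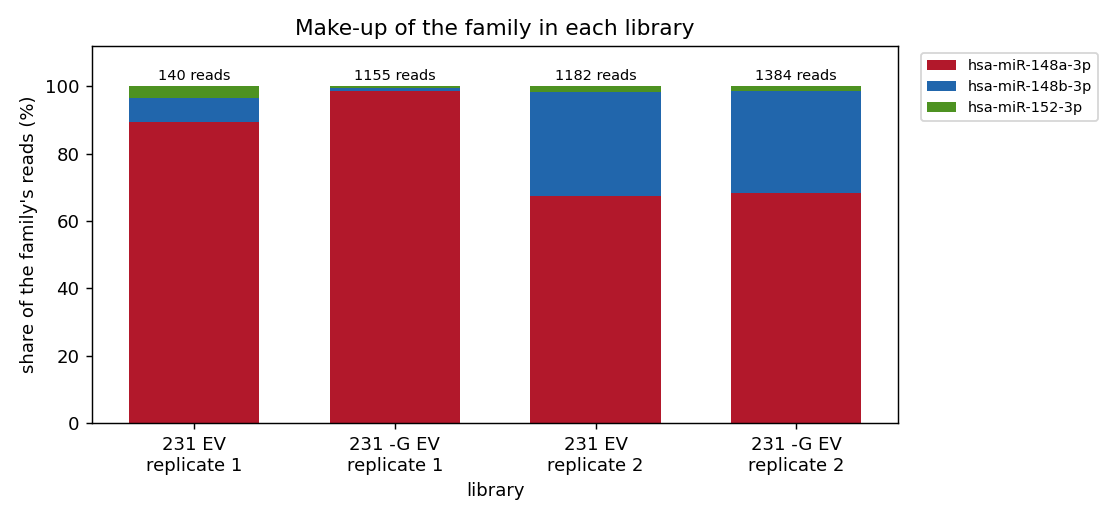
Share of the family's reads (percent, from 0 to 100) that came from each member in each library, as stacked bars with the number of family reads given. The replicate 2 bars are alike, with hsa-miR-148a-3p at 67.4% and 68.2%, and in replicate 1 it takes 89.3% and 98.7%.

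The replicates differed in the family in both media, with 1 library set against 1. Preparation cannot be told apart here from any other difference between the replicates. Replicate 1 over replicate 2, hsa-miR-148b-3p was at 0.336 (0.160 to 0.625) in 231 EV and 0.209 (0.0897 to 0.416) in 231 -G EV, lower in replicate 1 by Fisher's exact test (adjusted p = 0.000439 and 1.11e-07). Of all miRNAs tested, 87 of 424 (20.5%) and 63 of 413 (15.3%) were likewise lower there. The ratio of hsa-miR-152-3p lay on the other side, at 2.91 (0.858 to 7.93, exact adjusted p = 0.124) in 231 EV and 3.65 (1.31 to 8.92, exact adjusted p = 0.0225) in 231 -G EV, where 53 of 424 (12.5%) and 74 of 413 (17.9%) miRNAs were higher in replicate 1. For hsa-miR-148a-3p the ratios were 1.92 (1.58 to 2.32) and 13.2 (12.1 to 14.4). Even in EV-free DMEM, therefore, hsa-miR-148a-3p per read of hsa-miR-148b-3p was 5.71 (2.95 to 12.3) times as high in replicate 1 as in replicate 2, and without glucose 63.2 (31.5 to 148) times. The gap between media in this same balance was 11.4 (3.95 to 33.8) in pair 1 and 1.03 (0.866 to 1.22) in pair 2.

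Markers of several other cell types were higher in 231 -G EV in pair 1, as hsa-miR-148a-3p was, and their part in its value was not tested. The red cell miRNAs (hsa-miR-451a, hsa-miR-144-3p, hsa-miR-144-5p and hsa-miR-486-5p) summed to 20.0% (231 EV) and 42.8% (231 -G EV) of reads in replicate 1, and to 0.253% and 0.0790% in replicate 2. The replicate 1 sums were mostly hsa-miR-451a (3577 and 6364 reads), beside hsa-miR-486-5p (96 and 295). The other members did not rise in reads, with hsa-miR-144-3p at 13 and 13 and hsa-miR-144-5p at 0 and 0. Of the reads left without hsa-miR-182-5p, which alone took 51.0% of 231 EV in replicate 1, the red cell sum was 40.9% and 44.0% in replicate 1. On that basis the pair 1 ratio of hsa-miR-148a-3p was 5.42. The muscle miRNAs (hsa-miR-1-3p, hsa-miR-133a-3p, hsa-miR-133b and hsa-miR-206) summed to 0.0163% and 1.47% in replicate 1 and to 0.00667% and 0.00234% in replicate 2. In 231 -G EV of replicate 1 all 4 had reads, whereas 3 of the 4 were at 0 in its partner, and 2 and 3 of the 4 in the libraries of replicate 2. The defining muscle miRNA hsa-miR-206 was read 98 times in 231 -G EV of replicate 1 and 0 times in the other 3 libraries. Multiciliated cell miRNAs (the miR-449 members and hsa-miR-34c-5p) summed to 0.0163% and 0.635% in replicate 1 and to 0.00178% and 0.00293% in replicate 2. The liver miRNA hsa-miR-122-5p took 0.0924% and 0.308% in replicate 1 and 0.132% and 0.0527% in replicate 2. White cell miRNAs summed to 0.0435% and 0.173%, and then to 0.820% and 0.393%. Their members did not move as one in pair 1, where hsa-miR-142-5p had 2 and 16 reads and hsa-miR-150-5p 0 and 6, but hsa-miR-223-3p 3 and 2 and hsa-miR-142-3p 3 and 3. On the reads left without hsa-miR-182-5p, the replicate 1 sums were 0.0333% and 1.52% for muscle, 0.0333% and 0.653% for multiciliated cells, 0.189% and 0.316% for liver, and 0.0887% and 0.178% for white cells. In pair 2 the red cell, white cell, muscle (15 and 4 reads) and liver sums were lower in -G EV. There hsa-miR-148a-3p and hsa-miR-148b-3p were higher, and a link between these values was not tested.

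Each hairpin can yield a second, passenger strand, which gives an independent count of its product. The passenger hsa-miR-148a-5p had 1 (231 EV) and 2 (231 -G EV) reads in replicate 1, and 3 and 1 reads in replicate 2. Its ratios were 2.36 (0.123 to 139) and 0.439 (0.00836 to 5.46), too wide to set against that of its 3p strand. The 3p strand held 99.2% and 99.8% of the miR-148a reads in replicate 1 and 99.6% and 99.9% in replicate 2. The passenger hsa-miR-148b-5p was read 0 times in either library of replicate 1, under limits of 163 and 192 CPM that a count of 0 allows (3 reads), and 3 and 4 reads in replicate 2, a ratio of 1.76 (0.297 to 12.0). The edgeR log2 fold changes were -0.02 (SE 1.03) for hsa-miR-148a-5p and 0.75 (SE 2.88) for hsa-miR-148b-5p, both with an adjusted p of 0.999. The passenger hsa-miR-152-5p was not analysed here.

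Other miRNAs known to act on DNA methyltransferases gave a mixed count. Of the 5, 1 was more than 1.5-fold higher in both pairs and 0 were lower (against 7.24% and 6.68% of all miRNAs), with median log2 folds of 0.54 in pair 1 and 0.72 in pair 2. The 1 was hsa-miR-29a-3p, whose family targets DNMT3A and DNMT3B, with 9 and 15 reads in replicate 1 and 10470 and 15913 in replicate 2, folds of 1.96 and 2.00. The exact interval of its pair 1 ratio, 0.806 to 5.09, included 1. Its relative hsa-miR-29b-3p had 6 and 3 reads in replicate 1 and 1157 and 1232 in replicate 2. The third of that family, hsa-miR-29c-3p, had 3 and 0 reads, and then 709 and 893. The DNMT1-targeting hsa-miR-185-5p had 17 and 21 reads, and then 224 and 281, folds of 1.46 and 1.65. Finally hsa-miR-342-3p, also reported to target DNMT1, had 0 and 2 reads, and then 247 and 125. In edgeR none of these 5 passed (adjusted p of 0.999 each).

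The family of hsa-miR-130a-3p, hsa-miR-130b-3p, hsa-miR-301a-3p, hsa-miR-301b-3p and hsa-miR-454-3p carries the bases AGUGCA of the miR-148 and miR-152 seed shifted by 1 position, as in hsa-miR-130b-3p (RefSeq, chr22:21653354-21653375 on the plus strand, intended to show the shift).
hsa-miR-130b-3p: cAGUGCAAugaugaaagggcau

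Of its 5 members 4 were listed for both replicates, and 2 of these were more than 1.5-fold higher in both pairs and 0 lower (against 7.24% and 6.68% of all miRNAs). The median log2 folds were 0.73 and 0.71, against 0 and 0 over all 539 miRNAs. The first, hsa-miR-130a-3p, had 1 and 2 reads in replicate 1 and 265 and 796 in replicate 2, folds of 2.33 and 3.95. The second, hsa-miR-130b-3p, had 0 and 1 reads in replicate 1 and 101 and 237 in replicate 2. A difference of a single read carried both past 1.5-fold in pair 1, so the pair 1 median of this list has no more depth than that. In pair 2 hsa-miR-301a-3p had 103 and 68 reads and hsa-miR-454-3p 206 and 106, after 0 and 0 and 3 and 3 reads in pair 1. The pair 2 ratio of hsa-miR-130a-3p was 3.95 (3.44 to 4.56), that of hsa-miR-454-3p 0.677 (0.531 to 0.860) and that of hsa-miR-301a-3p 0.869 (0.630 to 1.19), whose interval includes 1. In edgeR 0 of the 4 passed.

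The miRNAs whose pattern over the 4 libraries was most like that of hsa-miR-148a-3p were sought among the 53 others with at least 10 reads in every library. Likeness was the root mean square (RMS) difference of log2(CPM + 1) after centring, with a median of 1.75 over the 53. The nearest was hsa-miR-378a-3p, hosted in a gene of mitochondrial metabolism, PPARGC1B, at an RMS of 0.634, with 13 and 40 reads in replicate 1 and 37 and 34 in replicate 2. It was followed by hsa-miR-99a-5p at 0.813, with 52 and 283 reads and then 167 and 82. The next were hsa-miR-140-3p at 0.909 (53 and 106 reads, then 299 and 372), hsa-miR-218-5p at 0.928 (12 and 29, then 113 and 81) and hsa-miR-17-5p at 0.983 (20 and 28, then 42 and 40). Their pair 1 folds ran from 1.65 to 6.42, all below that of hsa-miR-148a-3p, and their pair 2 folds from 0.647 to 1.64. The likeness rests on 4 libraries in which pair 1 sets most of the pattern.

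**Figure D4:**
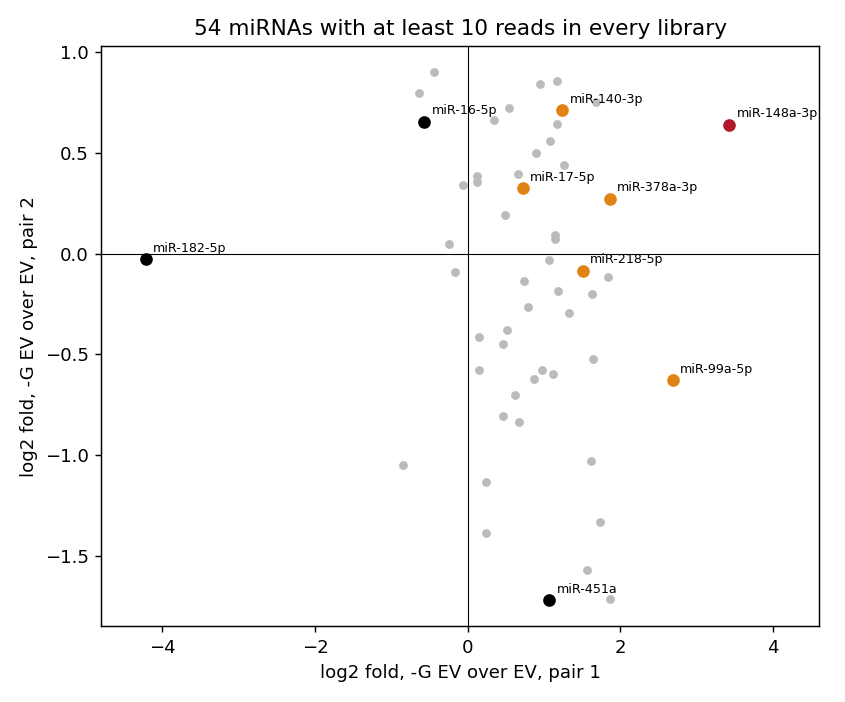
Log2 fold of CPM plus 1, 231 -G EV over 231 EV, in pair 1 (x axis) against pair 2 (y axis) for the 54 miRNAs with at least 10 reads in every library, with 1 point a miRNA. Red marks hsa-miR-148a-3p, at 3.43 and 0.64 the point farthest to the right, orange the 5 nearest patterns, and black hsa-miR-182-5p, hsa-miR-451a and hsa-miR-16-5p.

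The target side was outside these data, which hold no messenger RNA. As context, the DNA letters TGCACTG, which pair with the shared seed, were searched on the sense strand of GENCODE v29 3′ UTRs, and 2383 of 19179 principal transcripts (12.4%) held them. Known or proposed targets were then read, with the match in capitals, because any match serves all 3 members alike.
DNMT1, bases 48 to 54 of a 321 nt 3′ UTR: gaatccccaacaTGCACTGatgtt
ITGA5, bases 187 to 193 of a 1032 nt 3′ UTR: ccctcccccccaTGCACTGtgaag
ITGA5, bases 902 to 908: ctgcctgccagcTGCACTGatgct
ABCA1, bases 3112 to 3118 of a 3313 nt 3′ UTR: gggatctattttTGCACTGgaata

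Of UTRs of like length, 3.00% held a match for DNMT1, 9.54% for ITGA5, the integrin alpha-5 subunit, and 25.7% for ABCA1, a cholesterol exporter. A match is a run of letters, not a measured site.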

How the data were processed

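Small RNA libraries of EVs from 2 groups of 2 were analysed, grouped by their titles. Per the study's methods, reads were trimmed, filtered against Rfam classes, aligned with Bowtie2 and matched to miRBase. For the small RNA reads, the Bowtie2 version is not given in the sources used here. The submitters' notes name hg38. The authors deposited whole-number counts per miRNA. The deposited CPM (replicate 1) and deposited TPM (replicate 2) both equalled the count over the library total times 1000000, without a length term. From the counts, edgeR 4.0.16 (limma 3.58.1, DESeq2 1.42.0, R 4.3.3) was fitted to 384 miRNAs above 0 in at least 2 libraries, with deposited totals and the replicate number as a block. The block follows the preparations in the labels, and same-numbered libraries deviated together (correlation 0.586). Each SE beside an edgeR log2 fold change was computed from the test, as the absolute change over the square root of the F statistic. Fisher's exact tests were two-sided, with Benjamini-Hochberg adjustment across all miRNAs that either compared library had reads for. Exact conditional and Wilson intervals are at 95% (SciPy 1.17.1). The edgeR fit with the block, Fisher's exact test and the exact interval of a ratio of counts were tested on simulated data. The limma, DESeq2 and other edgeR fits were not. Members, lists and tests were chosen with earlier results of these data known. Named miRNAs were the members, their passengers, both related lists (values from 50 reads upward, others only where a count needed them), hsa-miR-182-5p, hsa-miR-16-5p and the 5 nearest patterns. Marker lists of other cell types, their sums without hsa-miR-182-5p, target genes and motifs were added after values were seen.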

Additional observations from a re-analysis of the deposited data

Results flagged for a closer look

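In the family and its passenger strands, 2 miRNAs had ratios on opposite sides of 1 in the pairs by library totals. The -G EV over EV ratio of hsa-miR-148b-3p was 0.944 in pair 1, on 10 and 8 reads, and 1.52 in pair 2, on 364 and 419 reads. That of hsa-miR-148a-5p was 2.36 in pair 1 and 0.439 in pair 2, on 1 to 3 reads a library. The difference between the pairs was not tested for either, and all of their intervals other than that of hsa-miR-148b-3p in pair 2 include a ratio of 1.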

How the results depend on the processing

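The count of miRNAs called by edgeR was 0, and 1 when a read in at least 1 library sufficed or when the totals excluded hsa-miR-182-5p. Without the replicate block it was 0, and hsa-miR-148a-3p, hsa-miR-148b-3p and hsa-miR-152-3p were at log2 fold changes of 2.93, 0.46 and 0.65 in place of 2.03, 0.31 and 0.53. For hsa-miR-148b-3p the sign turned under TMM (-0.0568) and with hsa-miR-182-5p excluded (-0.0541), and single pairs ranged from -0.0837 to 0.60. The number of members past 1.5-fold in both pairs was 1, but 0 under TMM and relative to hsa-miR-16-5p, 2 at a threshold of 1.2, 0 at a threshold of 2, and 2 in either pair alone, by different second members. The pair 1 fold of hsa-miR-148a-3p, 10.8, was 5.99 under TMM, 5.42 without hsa-miR-182-5p, 16.0 relative to hsa-miR-16-5p and 5.63 without hsa-miR-182-5p and hsa-miR-451a (chosen after seeing the data). In pair 2 relative to hsa-miR-16-5p, hsa-miR-148a-3p was at 0.989 and hsa-miR-148b-3p at 0.962. The hsa-miR-148a-3p share of the family's reads in 231 -G EV of replicate 1, 98.7%, was 99.3% without hsa-miR-152-3p. A pseudocount of 10 changed no call. Depth limits replicate 1 most, where hsa-miR-148b-3p and hsa-miR-152-3p rest on 5 to 10 reads.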
